A study of Homo sapiens with 4 samples.

Results

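Forkhead genes encode transcription factors that bind DNA through a winged-helix domain. The genes described here are all such genes outside the FOXA subfamily, FOXQ1 and FOXM1. Members were chosen as protein-coding rows of the count files whose symbol begins with FOX, a letter from A to S and a digit. That rule found 44 rows among 57820 identifiers, of which 19263 are protein-coding. One of them, FOXL2NB, matches by symbol only, since it is the neighbour of FOXL2 and encodes no forkhead protein, which leaves 43 forkhead genes.

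RNA was compared between TD cells and parental A549 cells, with 2 libraries for each. A549 is an established human lung adenocarcinoma line. The TD line derives from A549 under lasting exposure to TGF-β, a cytokine that moves epithelial cells toward a mesenchymal state. TGF-β was given at 2 ng/ml, and again after every 3 days. Both lines grew in medium with 10% serum and gentamycin. TD is a single derived line in the labels. Whether the replicates were grown apart is not stated, and p-values therefore measure only the spread between libraries, which may be technical.

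Libraries held 28237849 and 44133836 gene counts for TD and 26729278 and 29381872 for A549. The line labels were checked against marker genes. All 7 mesenchymal markers rose in TD and 6 of 7 tested epithelial markers fell, the exception being KRT7, a keratin that was not called. Another epithelial marker, CLDN4, had 0 counts in every library. Summed levels of 8 immune markers were 1.80 to 2.34 CPM (reads per library total after TMM scaling, which corrects for composition) in TD and 2.49 to 2.695 CPM in A549, and CD3E and MS4A1 were among those with 0 counts throughout. Summed levels were 0.517 to 0.812 CPM in TD and 1.65 CPM in A549 for 6 fibroblast markers. For 4 endothelial markers they were 0.320 to 0.551 CPM in TD and 0.135 to 0.431 CPM in A549. Another endothelial marker, PECAM1, was not matched. In such bulk libraries, fewer cells that express a gene and less of its RNA per cell cannot be told apart.

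Forkhead factors fall into lettered subfamilies with different known roles. FOXO proteins are held out of the nucleus by AKT after growth factor signalling, drive genes of cell cycle arrest and metabolism when nuclear, and can work together with SMAD proteins, the transducers of TGF-β. FOXP proteins mostly repress transcription and act in lung and airway development. FOXC, FOXD, FOXF, FOXL and FOXS genes are best known from mesoderm, neural crest and connective tissue, FOXK and FOXN2 or FOXN3 genes are active in many cell types, and FOXJ1 switches on the genes of motile cilia.

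Promoter sequences are shown for the members whose contrasts the results turn on, as windows of 300 bases, mostly upstream, around the RefSeq start of each gene on GRCh38.p14. This is another build than the hg19 of the count files, and the promoter table matched 35 of the 44 members and 20 of the 24 that were tested, while FOXS1, the gene with the largest change, was not matched. FOXP1 is shown for its large rise, at chr3:71583679-71583978 (minus strand). FOXO1 at chr13:40666592-40666891 (minus strand) and FOXO4 at chrX:71095601-71095900 (plus strand) are shown as close relatives that moved in opposite directions. FOXF2 at chr6:1389326-1389625 (plus strand) and FOXC1 at chr6:1609665-1609964 (plus strand) are adjacent genes that also moved in opposite directions. FOXL2 at chr3:138947088-138947387 (minus strand) is shown for the window it shares with FOXL2NB on the other strand. In the first 5 sequences capitals mark matches to 4 motifs searched on both strands. In the FOXL2 sequence capitals mark the 179 bases that also lie in the 300-base window of FOXL2NB.

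FOXP1: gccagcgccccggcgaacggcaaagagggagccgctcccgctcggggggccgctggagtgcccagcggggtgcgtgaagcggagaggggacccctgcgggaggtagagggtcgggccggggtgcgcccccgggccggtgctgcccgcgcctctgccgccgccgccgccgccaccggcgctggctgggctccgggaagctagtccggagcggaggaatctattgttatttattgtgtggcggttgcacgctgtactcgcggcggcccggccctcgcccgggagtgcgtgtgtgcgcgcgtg

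FOXO1: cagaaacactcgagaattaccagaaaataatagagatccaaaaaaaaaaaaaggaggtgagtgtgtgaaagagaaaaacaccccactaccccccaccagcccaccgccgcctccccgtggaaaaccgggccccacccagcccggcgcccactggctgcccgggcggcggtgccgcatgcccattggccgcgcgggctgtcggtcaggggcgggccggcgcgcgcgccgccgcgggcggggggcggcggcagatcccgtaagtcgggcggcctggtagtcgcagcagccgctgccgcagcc

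FOXO4: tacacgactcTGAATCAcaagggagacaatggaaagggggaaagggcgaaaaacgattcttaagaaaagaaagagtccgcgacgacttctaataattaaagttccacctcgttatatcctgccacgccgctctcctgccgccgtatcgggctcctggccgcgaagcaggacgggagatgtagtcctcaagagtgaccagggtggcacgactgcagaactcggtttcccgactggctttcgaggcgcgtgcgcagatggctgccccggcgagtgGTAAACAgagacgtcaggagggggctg

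FOXF2: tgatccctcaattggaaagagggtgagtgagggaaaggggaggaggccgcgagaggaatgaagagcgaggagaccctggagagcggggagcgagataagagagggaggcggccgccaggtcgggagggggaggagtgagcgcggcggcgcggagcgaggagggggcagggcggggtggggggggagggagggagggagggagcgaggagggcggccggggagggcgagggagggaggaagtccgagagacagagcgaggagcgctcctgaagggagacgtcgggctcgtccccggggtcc

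FOXC1: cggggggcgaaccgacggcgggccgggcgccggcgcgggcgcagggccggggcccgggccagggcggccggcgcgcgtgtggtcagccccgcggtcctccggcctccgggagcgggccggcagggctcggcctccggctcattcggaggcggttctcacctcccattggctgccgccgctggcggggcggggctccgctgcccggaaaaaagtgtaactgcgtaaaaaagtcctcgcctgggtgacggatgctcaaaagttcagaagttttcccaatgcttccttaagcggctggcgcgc

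FOXL2: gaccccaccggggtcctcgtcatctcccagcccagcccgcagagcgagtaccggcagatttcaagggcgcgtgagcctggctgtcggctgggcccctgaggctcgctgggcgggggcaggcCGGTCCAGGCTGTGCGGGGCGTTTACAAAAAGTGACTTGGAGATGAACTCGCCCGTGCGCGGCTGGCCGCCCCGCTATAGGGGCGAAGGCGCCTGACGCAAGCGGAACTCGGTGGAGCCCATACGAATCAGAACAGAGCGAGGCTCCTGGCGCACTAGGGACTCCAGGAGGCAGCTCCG

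The motifs were GTAAACA (a forkhead core), CAGAC (a SMAD half-site), CACCTG (the E2 box bound by ZEB and SNAIL factors) and TGANTCA (a loose AP-1 pattern, where N is any base). No matches to different motifs overlapped in the printed sequences. Of the 6 promoters shown, FOXO4 was the only one with a match to any of these motifs. That promoter had 1 match to the forkhead core and 1 to the loose AP-1 pattern, with A in place of N. GTAAACA occurred in 3.41% of 27305 promoters of the same length and in 1 of 20 tested members. CAGAC occurred in 45% of all promoters and in 4 of 20 tested members, CACCTG in 20.6% and in 3 of 20, and TGANTCA in 7.76% and in 1 of 20. Among members called higher and lower in TD, CAGAC was in 2 of 10 and 1 of 3 promoters. The promoters of tested members had a median GC content of 69.5% (range 38.7% to 84.3%), against 58.3% for all promoters. FOXP2 at 38.7% and FOXJ3 at 42% were the lowest of these 20. A match describes letters and says nothing about binding.

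Of the 44 members, 24 passed the expression filter and were tested (edgeR's quasi-likelihood test on all 17785 genes that passed). In TD cells 11 of them rose and 4 fell at an adjusted p below 0.05, against a background of 21.6% of all tested genes higher and 21.4% lower, or 25.7% and 24.9% of protein-coding genes. At least 2-fold changes were reached by 6 members that rose, FOXS1, FOXP1, FOXD1, FOXO1, FOXN3 and FOXL2, where 9.49% of all tested genes rose that far, and by 3 that fell, FOXP2, FOXC1 and FOXO4, where 12.3% did. The median change of the 24 was 0.36 on the log2 scale, against -0.04 for all tested genes. These values hold for the set as chosen, with FOXL2NB among the 24. Of the 5 forkhead genes left out by the rule, 4 fell at least 2-fold and 0 rose. The libraries of TD and A549 did not overlap for 20 of the 24, against 74.0% of all tested genes. The number that rose was 6 without A549 replicate 1 and 6 without A549 replicate 2, and the number that fell was 2 and 3. Those fits take their spread from the TD pair alone. Their biological coefficient of variation was 34.1% and 34.0%, against 20.1% with all libraries and 7.08% with either TD library left out. The members lost were FOXD1, FOXJ2, FOXJ3, FOXK1, FOXL2 and FOXN2 in both cases, with FOXP2 in the first.

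**Figure D1:**
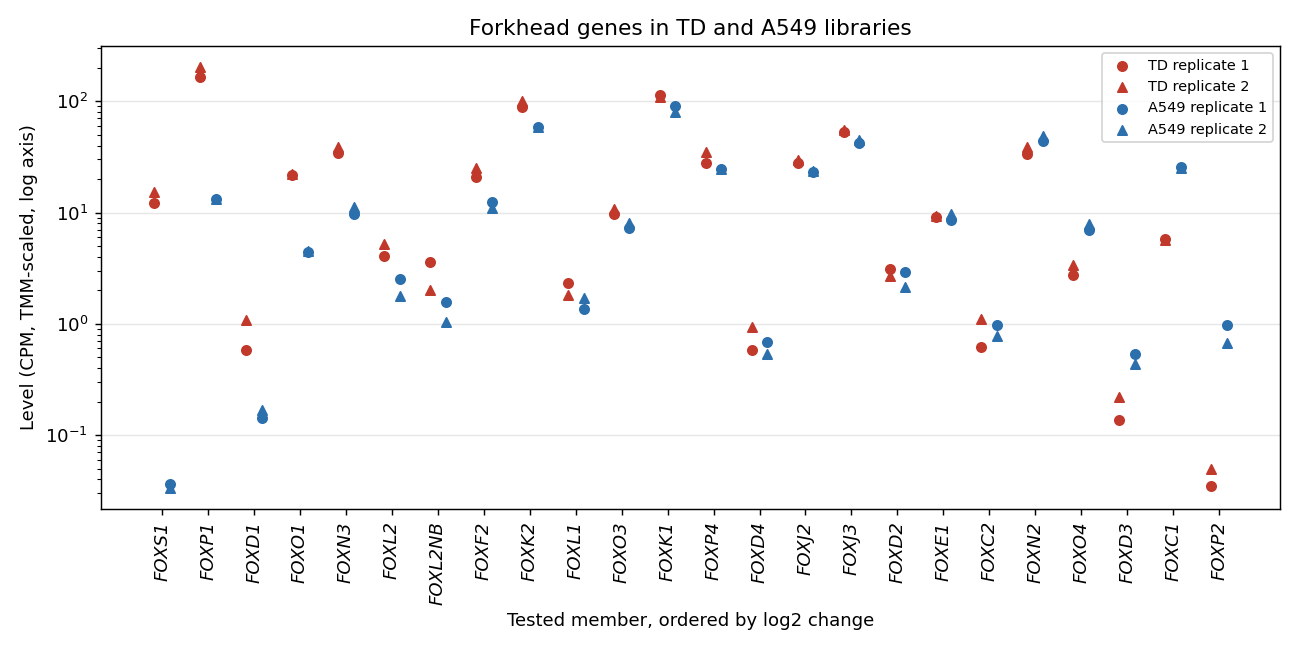
Level of each tested member in every library, in CPM on a log axis, with TD libraries in red to the left of A549 libraries in blue for each gene. Genes run from the largest rise (FOXS1) to the largest fall (FOXP2), and the groups overlap in FOXD4, FOXD2, FOXE1 and FOXC2.

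FOXS1, a forkhead gene known from neural crest derivatives and the cells around vessels, changed most. It had 12.2 and 15.2 CPM in the TD libraries, against 0.0359 and 0.0337 CPM in the A549 libraries, where each held 1 count. The 970 counts in TD and 2 in A549 give a ratio of 400.2 (95% exact interval 110.5 to 3310, counting error only), with an adjusted p of 6.76e-05. The gene was thus near absent in both A549 libraries and clearly present in both TD libraries. It was called under each of the 16 alternative settings, with fitted log2 changes of 8.04 to 8.63. Its neighbours on chromosome 20 were low, with MYLK2, a muscle kinase gene, at 1.19 ± 0.0235 CPM in TD and 0.365 ± 0.00813 CPM in A549 (SD, n = 2; log2 change 1.69, SE 0.32, adjusted p = 0.0129).

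FOXP genes made the largest change by summed level. FOXP1, a repressor with roles in lung epithelium, B cells and the nervous system, had 167 and 203 CPM in TD, against 13.1 and 13.1 CPM in A549. This is a 14.1-fold rise (log2 change 3.82, SE 0.13, adjusted p = 7e-05), and it was called under each of the 16 alternatives. FOXP1 held 4838 and 8265 counts in TD and 365 and 389 in A549, and the groups lay far apart. FOXP4, a close relative expressed in lung and gut epithelium, had 27.9 and 34.6 CPM in TD, against 24.7 and 24.5 CPM in A549, and was not called (log2 change 0.35, SE 0.13, adjusted p = 0.0835). It passed under 5 alternatives, among them without TD replicate 1 (adjusted p = 0.0001). FOXP2, known for its part in speech and language circuits, went the other way at a low level. It had 1 and 2 counts in TD, against 27 and 20 in A549, so A549 over TD was 19.0-fold by counts (95% exact interval 6.11 to 95.4, counting error only; adjusted p = 0.00481), and the call was lost without A549 replicate 1 (adjusted p = 0.0762). FOXP3, the factor of regulatory T cells, had at most 6 counts in any library and was not tested.

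The make-up of the FOXP subfamily by counts is given with intervals that cover counting error only, not the spread between libraries. FOXP1 gave 85.6% and 85.4% of FOXP counts in the TD libraries (95% exact intervals 84.7% to 86.6% and 84.7% to 86.1%), against 33.8% and 34.1% in the A549 libraries (31.0% to 36.7% and 31.3% to 36.9%). FOXP1 also gave 26.02% and 28.4% of all forkhead counts described here in TD, against 3.42% and 3.46% in A549. Shares by counts favour long transcripts. The summed level of all 43 forkhead genes was 678 ± 52.3 CPM in TD and 381.5 ± 3.34 CPM in A549, and FOXP genes summed to 216 ± 30.6 CPM in TD and 38.7 ± 0.244 CPM in A549 (SD, n = 2).

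FOXO genes moved in opposite directions. FOXO1, which is known to govern insulin-regulated genes, had 21.95 and 22.2 CPM in TD, against 4.38 and 4.52 CPM in A549. Its 4.96-fold rise (log2 change 2.31, SE 0.09, adjusted p = 0.000113) held under each of the 16 alternatives. FOXO4 had 2.72 and 3.34 CPM in TD, against 6.97 and 7.92 CPM in A549, and fell (log2 change -1.29, SE 0.19, adjusted p = 0.00536), also under each of the 16. FOXO3, linked to stress resistance and cell death, had 9.72 and 10.8 CPM in TD, against 7.33 and 8.02 CPM in A549. It just missed the threshold (log2 change 0.42, SE 0.13, adjusted p = 0.0514) and passed under 7 alternatives, such as without TD replicate 1 (adjusted p = 0.0033). FOXO3B, annotated as a processed pseudogene, is a near-identical copy of FOXO3, so how reads split between them is uncertain. FOXO3B had means of 1.88 CPM in TD and 1.84 CPM in A549. FOXO6 had 4 and 9 counts in TD and 3 and 0 in A549 and was not tested.

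**Figure D2:**
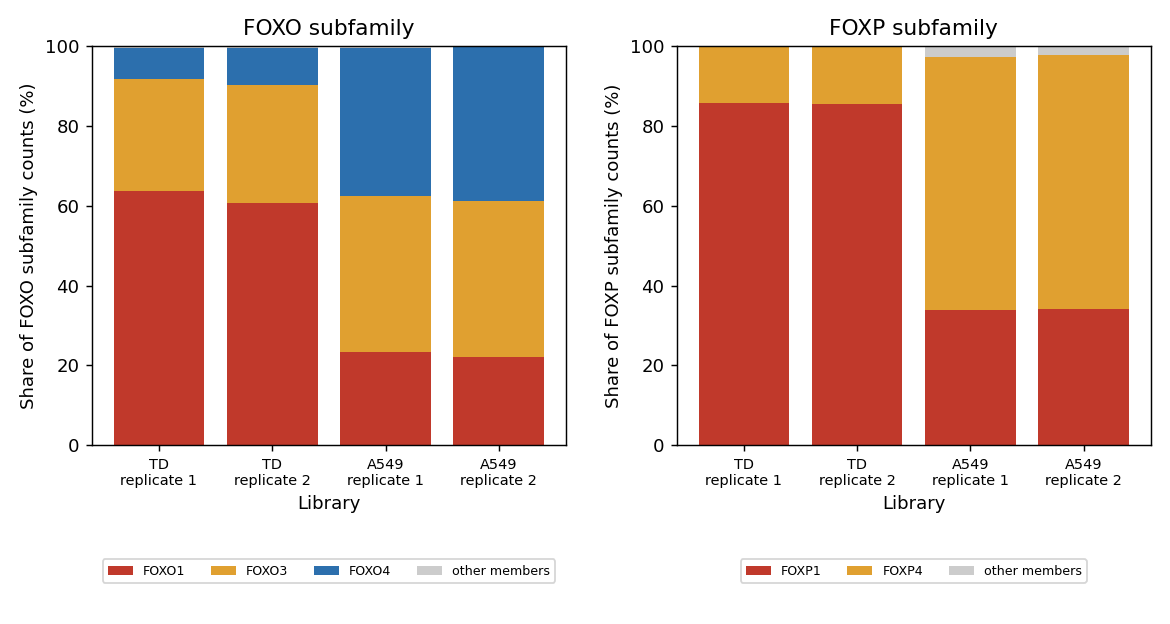
Share of subfamily counts held by each FOXO member (left) and FOXP member (right), in percent, for the TD libraries and then the A549 libraries. FOXO1 makes up 63.6% and 60.7% of FOXO counts in TD and 23.3% and 22.1% in A549, and FOXP1 is the larger FOXP share in TD only.

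FOXO1 gave 63.6% and 60.7% of FOXO counts in the TD libraries, against 23.3% and 22.1% in the A549 libraries, while FOXO4 gave 7.88% and 9.15% in TD, against 37.1% and 38.7% in A549. FOXO1 exceeded FOXO4 in TD and was below it in A549 also per length. With the longest coding transcript as length, FOXO1 stood at 3.85 CPM per kilobase in TD and 0.776 in A549, and FOXO4 at 0.919 in TD and 2.25 in A549. The summed FOXO level was 35.5 ± 1.42 CPM in TD and 19.6 ± 1.18 CPM in A549 (SD, n = 2).

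Among the tested FOXC, FOXD, FOXF, FOXL and FOXS genes, FOXS1, FOXD1, FOXL2 and FOXF2 were called higher and FOXC1 alone lower. FOXC1, needed for eye, vessel and skull development, had 5.79 and 5.70 CPM in TD, against 25.65 and 25.04 CPM in A549, and was 4.41-fold lower in TD (log2 change -2.14, SE 0.09, adjusted p = 0.000115, called under each of the 16 alternatives). FOXF2, a factor of gut and lung mesenchyme, had 20.8 and 25.1 CPM in TD, against 12.5 and 11.02 CPM in A549, and rose 1.95-fold (log2 change 0.97, SE 0.13, adjusted p = 0.00477), again under each of the 16. These genes are adjacent on chromosome 6 in the order FOXQ1, FOXF2, FOXC1 and GMDS, by GENCODE 29. FOXQ1 averaged 1.97 ± 0.204 CPM in TD and 12.4 ± 0.288 CPM in A549, and GMDS, an enzyme of fucose synthesis, averaged 6.86 ± 0.976 CPM in TD and 24.9 ± 2.67 CPM in A549 (SD, n = 2). Both fell, with log2 changes of -2.64 (SE 0.15, adjusted p = 0.000286) and -1.86 (SE 0.15, adjusted p = 0.000813), so that FOXF2 was the only riser among these 4 genes.

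FOXC2 and FOXL1 are adjacent on chromosome 16, and MTHFSD lies between them and FOXF1, the other factor of lung mesenchyme. FOXF1 and its noncoding neighbour FENDRR had 0 counts in all 4 libraries, which allows levels of up to 0.0738 to 0.108 CPM at these depths. FOXC2, named in mesenchymal change of breast cells, had 18 and 45 counts in TD, against 27 and 23 in A549, with overlapping levels (log2 change -0.00, SE 0.41, adjusted p = 0.996), and the sign of that value turned under 6 alternatives, among them scaling by DESeq2 size factors (0.01). FOXL1, a gene of gut mesenchyme, had 2.34 and 1.79 CPM in TD, against 1.36 and 1.72 CPM in A549 and was not called (log2 change 0.42, SE 0.28, adjusted p = 0.292).

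FOXL2, the ovarian granulosa cell factor, had 4.10 and 5.21 CPM in TD, against 2.55 and 1.79 CPM in A549. It rose 2.15-fold (log2 change 1.10, SE 0.27, adjusted p = 0.0263). Its adjusted p was 0.0581 without A549 replicate 1, 0.115 without A549 replicate 2 and 0.0843 with the replicate number as a block. FOXL2NB, which starts from the printed window in the other direction, had 3.58 and 2.02 CPM in TD, against 1.58 and 1.05 CPM in A549. Its fitted change was of like size but missed the threshold (log2 change 1.09, SE 0.40, adjusted p = 0.0858), and it passed under 5 alternatives. The annotated genes themselves do not overlap.

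FOXD genes were low in both lines. FOXD1, a gene of the kidney stroma, had 17 and 44 counts in TD, against 4 and 5 in A549, and rose (log2 change 2.40, SE 0.53, adjusted p = 0.0198). Its adjusted p was 0.141 without A549 replicate 1, 0.122 without A549 replicate 2 and 0.0547 with the replicate block. FOXD3, a neural crest and stem cell factor, had 4 and 9 counts in TD, against 15 and 13 in A549 (log2 change -1.40, SE 0.52, adjusted p = 0.0892), and passed under 3 alternatives, with protein-coding genes only (adjusted p = 0.0191), with pseudogenes left out (0.0173) and without TD replicate 2 (0.0424). FOXD2 had 3.10 and 2.68 CPM in TD, against 2.95 and 2.12 CPM in A549 (log2 change 0.19, SE 0.25, adjusted p = 0.592). FOXD4, one of several nearly identical copies, had 17 and 38 counts in TD, against 19 and 16 in A549 (log2 change 0.32, SE 0.41, adjusted p = 0.566), and its value is uncertain for that reason. FOXE1, the thyroid factor, had 9.17 and 9.30 CPM in TD, against 8.59 and 9.71 CPM in A549 (log2 change 0.01, SE 0.12, adjusted p = 0.942). The sign for FOXE1 turned under scaling by upper quartiles (-0.01) and by library totals (-0.06).

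**Figure D3:**
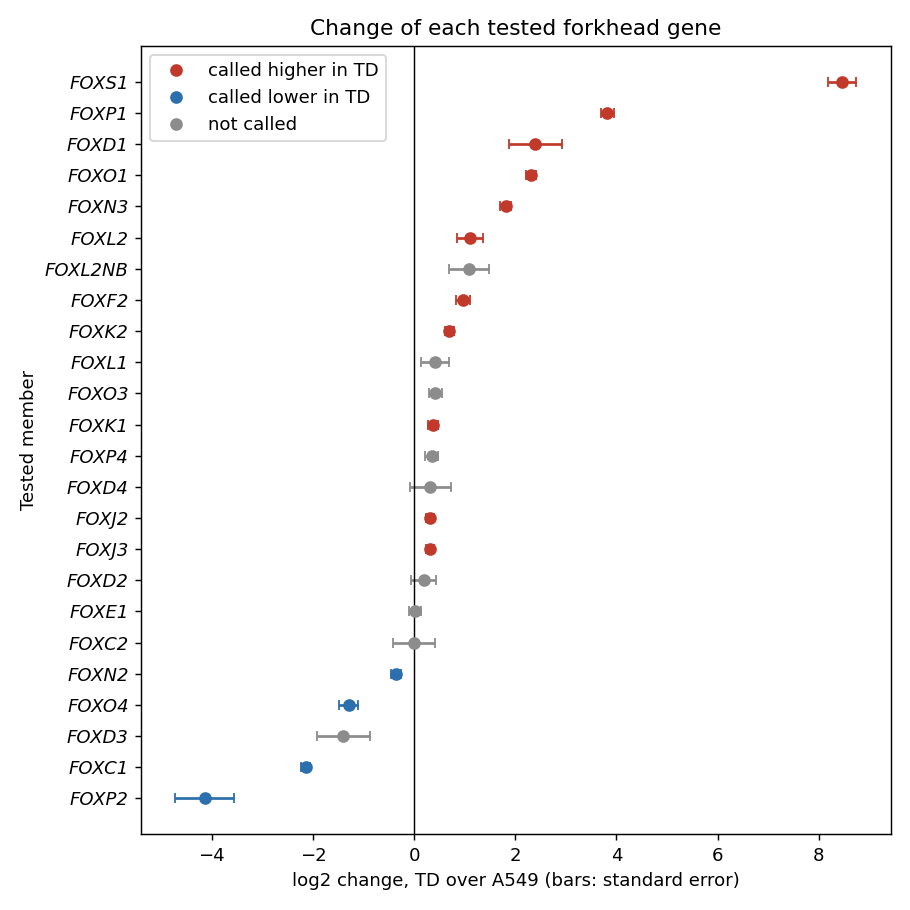
Log2 change of each tested member, TD over A549, with its standard error as a bar. The 11 genes called higher in TD are red, the 4 called lower are blue and the 9 not called are grey, and FOXS1 at 8.47 and FOXP2 at -4.14 are the extremes.

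Among the tested FOXJ, FOXK and FOXN genes, only FOXN3 changed at least 2-fold. FOXN3, a repressor tied to the DNA damage checkpoint, had 34.5 and 38.7 CPM in TD, against 9.74 and 11.2 CPM in A549. It rose 3.51-fold (log2 change 1.81, SE 0.12, adjusted p = 0.000402), under each of the 16 alternatives. FOXN2, its close relative, had 33.6 and 38.6 CPM in TD, against 43.97 and 48.6 CPM in A549, and fell (log2 change -0.36, SE 0.11, adjusted p = 0.0473). The fall missed the threshold with DESeq2 size factors (adjusted p = 0.0575) and with either A549 library left out (0.0624 for replicate 1 and 0.127 for replicate 2).

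FOXK2, which with FOXK1 is known to regulate autophagy and glucose use, had 89.0 and 100.8 CPM in TD, against 59.2 and 58.3 CPM in A549 (log2 change 0.69, SE 0.09, adjusted p = 0.00383). FOXK1 had 113 and 108 CPM in TD, against 91.0 and 79.3 CPM in A549 (log2 change 0.38, SE 0.10, adjusted p = 0.0301), and missed the threshold by library totals (adjusted p = 0.109) and with either A549 library left out (0.0677 for replicate 1 and 0.161 for replicate 2). Both rose in the fit of all libraries, FOXK2 under every alternative except the test against a 1.5-fold change (adjusted p = 0.178). FOXJ2 had 28.1 and 29.8 CPM in TD, against 23.2 and 23.4 CPM in A549 (log2 change 0.31, SE 0.08, adjusted p = 0.0306). FOXJ3, like FOXJ2 a widely expressed activator, had 53.0 and 55.3 CPM in TD, against 42.0 and 45.2 CPM in A549 (log2 change 0.31, SE 0.08, adjusted p = 0.0299). Without A549 replicate 1 neither was called (adjusted p = 0.119 for FOXJ2 and 0.136 for FOXJ3), nor without A549 replicate 2 (0.0971 and 0.0649), and FOXJ2 was also lost without TD replicate 2 (0.0736), by library totals (0.0557) and with the replicate block (0.0625).

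Levels were set against each other per kilobase of the longest coding transcript. In TD the highest were FOXP1 at 20.6 CPM per kilobase, FOXK2 at 18.0, FOXS1 at 10.4, FOXJ3 at 10.1, FOXK1 at 9.90 and FOXF2 at 9.37. In A549 they were FOXK2 at 11.2 CPM per kilobase, FOXN2 at 8.56, FOXJ3 at 8.15, FOXK1 at 7.62, FOXC1 at 6.46 and FOXF2 at 4.799, while FOXP1 stood at 1.46 and FOXS1 at 0.0264. The place of FOXP1 depends on the length used. Over all annotated exons it stood at 5.04 CPM per kilobase in TD, below FOXS1 at 10.4, FOXK2 at 9.50, FOXF2 at 9.37, FOXK1 at 8.46, FOXJ3 at 7.86, FOXN2 at 6.58 and FOXP4 at 5.06. FOXS1 was thus among the 3 highest in TD by either length.

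The remaining 20 members were too low to test. No count was found in any library for 8 of them, among which were FOXB1, FOXB2, FOXF1 and FOXR1. The other 12, FOXD4L1, FOXD4L5, FOXE3, FOXH1, FOXI1, FOXI2, FOXI3, FOXJ1, FOXN1, FOXN4, FOXO6 and FOXP3, had at most 9 counts in a library. FOXH1, the SMAD partner of Nodal signalling, had 1 and 2 counts in TD and 7 and 4 in A549, and FOXJ1 had 0 and 1 in TD and 6 and 2 in A549. By summed counts A549 over TD was 4.44-fold for FOXH1 (95% exact interval 1.17 to 24.8) and 9.69-fold for FOXJ1 (1.30 to 430.2), where the intervals cover counting error only. None of these 12 was called when the filter was dropped.

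Of 26 tested genes known to be driven by FOXO factors, 14 fell in TD (53.8%, against 24.9% of protein-coding genes) and 6 rose (23.1%, against 25.7%). Their median log2 change was -0.68. PDK4, a kinase that spares glucose and a classical FOXO target, averaged 0.271 ± 0.105 CPM in TD and 70.9 ± 8.51 CPM in A549 (log2 change -8.07, SE 0.23, adjusted p = 4.97e-05). TNFSF10, the death ligand TRAIL, had 1 count in TD and 160 in A549, 194-fold lower in TD (95% exact interval 34.3 to 7705, counting error only). ERBB3, a receptor that FOXO factors induce when AKT is blocked, averaged 0.802 ± 0.230 CPM in TD and 55.8 ± 0.699 CPM in A549 (log2 change -6.15, SE 0.18). FBXO32, the ubiquitin ligase atrogin-1, went the other way, with 8.01 ± 1.19 CPM in TD and 0.815 ± 0.0862 CPM in A549 (log2 change 3.29, SE 0.22, adjusted p = 0.000471). PINK1, a kinase of mitochondrial quality control, also rose, with 21.7 ± 2.95 CPM in TD and 6.97 ± 0.708 CPM in A549 (log2 change 1.64, SE 0.14), as did GADD45A, a growth arrest gene, with 23.5 ± 0.544 CPM in TD and 13.1 ± 0.862 CPM in A549 (log2 change 0.84, SE 0.09). The cell cycle inhibitors differed. CDKN1B fell, with 41.4 ± 0.705 CPM in TD and 81.1 ± 2.01 CPM in A549 (log2 change -0.97, SE 0.07, adjusted p = 0.000633), and CDKN1A had 119 ± 13.5 CPM in TD and 109 ± 1.97 CPM in A549 and was not called (adjusted p = 0.373), except without TD replicate 1 (0.0407).

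Among 36 tested regulators of FOXO proteins, 12 rose (33.3%, against 25.7% of protein-coding genes) and 7 fell (19.4%, against 24.9%). The share that rose was somewhat above that background and the share that fell somewhat below it, and neither difference was tested. The median log2 change was 0.09. PIK3CD, a catalytic PI3K subunit, averaged 59.2 ± 7.15 CPM in TD and 6.62 ± 0.169 CPM in A549 (log2 change 3.16, SE 0.12, adjusted p = 8.95e-05). INPP4B, a phosphatase of the same lipids, averaged 21.6 ± 0.0533 CPM in TD and 7.03 ± 0.494 CPM in A549 and rose (log2 change 1.62, SE 0.10). AKT1, a kinase that excludes FOXO from the nucleus, had 149 ± 13.1 CPM in TD and 146 ± 2.89 CPM in A549 and was not called (adjusted p = 0.795). PHLPP1, a phosphatase that removes the activating phosphate of AKT, fell, with 8.09 ± 1.01 CPM in TD and 39.5 ± 0.651 CPM in A549 (log2 change -2.29, SE 0.12). The FOXO kinases SGK2 and SGK1 fell, with log2 changes of -1.19 (SE 0.12) and -0.95 (SE 0.11). Without A549 replicate 2 only 4 regulators fell.

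Of 11 tested targets that FOXO and SMAD proteins are known to share, 6 rose (54.5%, against 25.7% of protein-coding genes) and 3 fell (27.3%, against 24.9%). The median log2 change was 0.71. Of these genes, CDKN1A and GADD45A also count among the FOXO targets above, and SGK1 among the FOXO regulators. CTGF (CCN2), a matricellular growth factor, averaged 201 ± 13.3 CPM in TD and 4.10 ± 0.209 CPM in A549 (log2 change 5.61, SE 0.11, adjusted p = 3.08e-05). JAG1, a Notch ligand, averaged 563 ± 25.2 CPM in TD and 146 ± 1.76 CPM in A549 (log2 change 1.95, SE 0.08), and GADD45B averaged 79.0 ± 6.96 CPM in TD and 33.6 ± 0.631 CPM in A549 (log2 change 1.23, SE 0.09). The 3 that fell were SGK1, CEBPB (log2 change -0.90, SE 0.16, adjusted p = 0.00975, lost without A549 replicate 1 at 0.0591) and CTDSP2 (log2 change -0.57, SE 0.07).

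**Figure D4:**
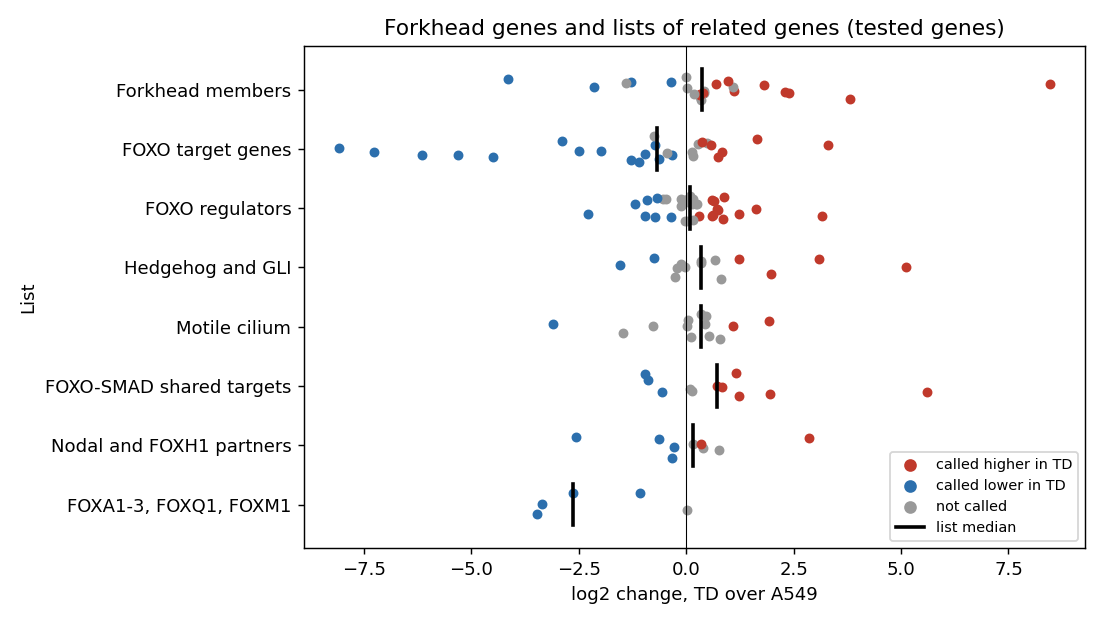
Log2 change, TD over A549, of every tested forkhead member and of tested genes of 7 related lists, with red for genes called higher in TD, blue for genes called lower, grey for genes not called and a black bar at each list's median. FOXO targets have a median of -0.68 and targets shared with SMAD proteins a median of 0.71, and these lists have some genes in common.

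Hedgehog signalling is known to switch on FOXF, FOXL1 and FOXC2 genes in mesenchyme. Of 14 tested genes of that pathway, 4 rose (28.6%, against 25.7% of protein-coding genes) and 2 fell (14.3%, against 24.9%). The share that rose was thus near the background and the share that fell below it. At least 2-fold changes were reached by 4 that rose, where 9.49% of all tested genes rose that far. They were reached by 1 that fell, where 12.3% did. HHIP, a decoy receptor and pathway target, averaged 4.37 ± 0.160 CPM in TD and 0.121 ± 0.0191 CPM in A549 (log2 change 5.12, SE 0.28, adjusted p = 0.000269). The transcription factors GLI3 and GLI2 rose, with log2 changes of 3.10 (SE 0.37, adjusted p = 0.00295) and 1.97 (SE 0.11, adjusted p = 0.000265). GLI1, the factor usually read as the pathway's output, fell, with 4.48 ± 0.431 CPM in TD and 13.0 ± 0.194 CPM in A549 (log2 change -1.54, SE 0.13, adjusted p = 0.000998), as did the receptor component SMO (log2 change -0.74, SE 0.09, adjusted p = 0.00292).

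Of 27 listed genes of motile cilia, which are known targets or partners of FOXJ1 or act before it, 13 were tested. Of these 2 rose (15.4%, against 25.7% of protein-coding genes) and 1 fell (7.69%, against 24.9%). The other 14 did not pass the filter, and 2 of them had 0 counts in every library. MCIDAS, a switch for multiciliated cells, averaged 1.54 ± 0.203 CPM in TD and 0.406 ± 0.289 CPM in A549 (adjusted p = 0.0453), and DNAH5, a dynein heavy chain, averaged 1.85 ± 0.0892 CPM in TD and 0.866 ± 0.158 CPM in A549 (adjusted p = 0.031). MCIDAS missed the threshold without A549 replicate 2 (adjusted p = 0.125), with upper quartile scaling (0.0514), by library totals (0.0628) and with the replicate block (0.0672). DNAH5 missed it without A549 replicate 1 (adjusted p = 0.168) or 2 (0.095), by DESeq2 (0.0702) and with the block (0.0772). RSPH1, a radial spoke gene, had 0.133 ± 0.0904 CPM in TD and 1.21 ± 0.142 CPM in A549 and fell (adjusted p = 0.0101), with adjusted p-values of 0.0807 and 0.0985 when A549 replicate 1 or 2 was left out. The counts for this list were 5 higher and 2 lower without TD replicate 1, 6 and 3 without TD replicate 2, 1 and 0 without A549 replicate 1, and 0 and 0 without A549 replicate 2.

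Of 9 tested genes of the Nodal pathway in which FOXH1 acts, 2 rose (22.2%, against 25.7% of protein-coding genes) and 4 fell (44.4%, against 24.9%). SMAD4, the common partner SMAD, rose (log2 change 0.34, SE 0.08, adjusted p = 0.0227), and SMAD3 (-0.64, SE 0.08, adjusted p = 0.00337) and SMAD2 (-0.33, SE 0.08, adjusted p = 0.0225) fell. ACVR1C, the Nodal receptor ALK7, was low and fell, with 8 counts in TD and 40 in A549 (log2 change -2.58, SE 0.53, adjusted p = 0.0164). Without A549 replicate 1 the counts were 1 higher and 2 lower, and without A549 replicate 2 they were 1 and 1. In these fits SMAD4 (adjusted p = 0.068 and 0.0976) and ACVR1C (0.169 and 0.0796) were not called, nor was SMAD2 without A549 replicate 2 (0.0626). The replicate block also ended the calls of SMAD4 (adjusted p = 0.0587) and ACVR1C (0.0638), and library totals that of SMAD4 (0.0546). Without TD replicate 1, 4 rose.

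Of the 5 forkhead genes outside the set, 4 fell (80.0%, against 24.9% of protein-coding genes). FOXA1, FOXA2 and FOXA3, pioneer factors of endoderm, averaged 1.80, 11.8 and 0.413 CPM in TD and 18.6, 24.9 and 4.68 CPM in A549 and fell with FOXQ1, while FOXM1, a driver of mitotic genes, averaged 95.1 CPM in TD and 93.9 CPM in A549 and was not called (adjusted p = 0.886). Of 4 tested noncoding neighbours of forkhead genes, FOXD2-AS1 rose, with 4.37 ± 0.286 CPM in TD and 2.67 ± 0.293 CPM in A549 (log2 change 0.71, SE 0.19, adjusted p = 0.0366), but not without A549 replicate 1 (adjusted p = 0.102) or 2 (0.158), by library totals (0.0572), with no filter (0.0603) or with the replicate block (0.094).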

How the data were processed

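RNA of 4 libraries, 2 of TD cells and 2 of A549 cells, was made with a stranded polyadenylated RNA kit and read in pairs, per the labels' protocols. The authors deposited raw counts per Ensembl gene. The submitters' processing notes name FastQC 0.11.8, STAR 2.7.1a, HTSeq 0.11.2 and the hg19 build. Which annotation release and strand setting were used is not given in the sources at hand. Reads given to no gene (6.12% to 7.79%), to more than 1 gene (2.34% to 2.56%) or with more than 1 alignment (8.08% to 9.22%) were left out, which can lower counts of near-identical copies. GENCODE 29 gave names and types for 52338 of 57820 identifiers, and gene order and lengths. It is on GRCh38, so no coordinates from it are printed, but which genes overlap was read from its positions. Promoter sequences are from RefSeq.

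TD was compared with A549 by edgeR 4.0.16 in R 4.3.3 (quasi-likelihood test, TMM scaling, minimum count 10, Benjamini-Hochberg adjustment over all tested genes). The fit was tried on simulated data with the same spread for every gene and both groups. It was not tried on unequal spreads, such as those of the TD and A549 pairs. Standard errors were taken as the size of the fitted change over the square root of F. The limit for a count of 0 is 3 counts. Members and gene lists were chosen with earlier results of these data known. All tested members are described, with the 3 largest called changes per direction of each list and preset genes of the pathways, except for a few genes that are not reported here. TXNIP and 4 noncoding genes of the lists were not matched, nor was the marker PECAM1. Alternatives covered scaling, filters, DESeq2 1.42.0, limma-voom (limma 3.58.1), gene subsets, thinning, a 1.5-fold test, the replicate block and leaving out each library.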

Additional observations from a re-analysis of the deposited data

How the results depend on the processing

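Counts of calls moved with the libraries kept and with the size of change tested. Leaving out 1 library at a time gave 2114 to 5329 genes higher and 2236 to 6140 lower among all tested genes, 6 to 14 higher and 2 to 5 lower among forkhead members, 4 to 9 lower FOXO regulators, 0 to 6 higher and 0 to 3 lower cilium genes, 1 to 4 higher and 1 to 4 lower Nodal genes, and 0 to 1 higher noncoding neighbours. The remaining library of a group is then assumed to vary like the other group. With all libraries kept, the biological coefficient of variation was 20.1% for all tested genes. It was 7.54% with protein-coding genes only and 7.90% with pseudogenes left out. Both of these gene subsets gave 14 higher and 5 lower forkhead members, with FOXO3, FOXP4, FOXD3 and FOXL2NB gained. The test against a 1.5-fold change, stricter by construction, gave 1741 higher and 2109 lower genes, 6 higher members, 5 higher and 3 lower FOXO regulators, 3 higher FOXO targets, 1 lower shared target, 1 lower Hedgehog gene, 0 higher cilium genes, 1 higher and 1 lower Nodal gene and 0 noncoding neighbours. Cilium genes higher numbered 1 by library totals, 1 by DESeq2, 5 with protein-coding genes only and 4 with pseudogenes left out. Those lower numbered 2 with upper quartiles, library totals, limma-voom, protein-coding genes only and thinning, and 3 with pseudogenes left out. Higher Nodal genes numbered 1 by library totals and 4 with protein-coding genes only, and higher noncoding neighbours 0 by library totals, with no filter and, by construction, with protein-coding genes only. The cause was not tested.

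With the replicate number as a block, 8 members were higher and 4 lower, 0 cilium genes and 0 noncoding neighbours were higher, and 1 Nodal gene was higher and 2 lower. Deviations of same-numbered libraries correlated at -0.09 over 17785 genes, and the labels give no shared source. With a single difference per group, this value cannot decide whether the replicate numbers mark a pairing.

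Among the genes named, signs turned only for genes that were not called. FOXC2 was 0.010 with DESeq2 size factors, 0.009 by DESeq2, 0.001 with limma-voom, 0.012 with protein-coding genes only and -0.486 to 0.356 with a library left out. FOXE1 was -0.010 with upper quartiles, -0.061 by library totals, -0.007 with no filter, -0.004 with protein-coding genes only, -0.024 with pseudogenes left out and -0.112 to 0.081 with a library left out. FOXM1 was -0.005 with upper quartiles, -0.060 by library totals, -0.001 with no filter, -0.018 with pseudogenes left out and -0.092 to 0.132 with a library left out. AKT1 was -0.046 by library totals, -0.004 with pseudogenes left out and -0.061 to 0.131 with a library left out. With a library left out, FOXD4 ranged from -0.056 to 0.625 and FOXD2 from -0.049 to 0.406. Library totals moved the median of all genes to -0.117 and the share of calls that were higher to 44.1%, against 50.2%. For the 24 tested members, 319 of 379 values kept direction and call, 26 lost a call, 20 gained one and 14 turned sign. Depth limits members under 10 counts per library.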

Other observations

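Genes beside called forkhead genes were in some cases called the same way and in others not. FOXP1 lies beside EIF4E3, a cap-binding protein gene, which averaged 18.0 ± 2.44 CPM in TD and 15.5 ± 0.135 CPM in A549 and was not called (log2 change 0.21, SE 0.12, adjusted p = 0.227), while FOXP1 rose 14.1-fold. FOXO1 lies between COG6, a Golgi trafficking gene, and MRPS31, a mitochondrial ribosome gene. COG6 averaged 17.1 ± 1.18 CPM in TD and 15.3 ± 1.06 CPM in A549 (adjusted p = 0.3), and MRPS31 averaged 19.4 ± 0.177 CPM in TD and 18.7 ± 0.535 CPM in A549 (adjusted p = 0.63). FOXN3 lies between TTC8, a ciliary trafficking gene that rose slightly (log2 change 0.30, SE 0.08, adjusted p = 0.0343), and EFCAB11, which was not called (log2 change 0.15, SE 0.12, adjusted p = 0.403). FOXO4, which fell, lies beside SNX12, a sorting nexin that rose, with 126.5 ± 19.1 CPM in TD and 87.2 ± 4.87 CPM in A549 (log2 change 0.54, SE 0.13, adjusted p = 0.0246). FOXK2, which rose, lies between NARF (log2 change 0.72, SE 0.08, adjusted p = 0.00218) and WDR45B (log2 change 0.46, SE 0.08, adjusted p = 0.0111), which also rose. FOXK2 and WDR45B overlap, and reads given to both genes were left out of the counts. FOXD1 lies beside BTF3, a basic transcription factor gene, which rose (log2 change 0.93, SE 0.13, adjusted p = 0.00536). FOXJ2, which rose, lies beside SLC2A3, a glucose transporter gene that fell, with 26.9 ± 2.07 CPM in TD and 129.8 ± 0.787 CPM in A549 (log2 change -2.27, SE 0.09, adjusted p = 9.3e-05). These neighbours were taken from gene order and named after their values were seen, and no test of a shared change was made.

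FOXP1-AS1, an antisense transcript within FOXP1, had 10 counts in TD and 0 in A549, at least 2.75-fold higher in TD with 3 counts set over the A549 group. Reads of FOXP1 and of its antisense partner cannot be told apart where the strand setting is unknown.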
